A study of Mus musculus with 2 samples.

Results

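The γδ and IL-17 producing lymphocytes of a mouse pancreatic tumour were taken as barcodes that carried T cell receptor complex transcripts together with Trdc, the constant gene of the δ receptor chain, or Il17a, the gene of the cytokine IL-17A. A barcode was a member if it held at least 1 unique molecular identifier (UMI, 1 counted transcript) summed over Cd3e, Cd3d, Cd3g, Trac and Trbc2, called the CD3 sum here, and at least 1 UMI of Trdc or Il17a. Barcodes with a UMI of the B cell gene Cd79a or of the macrophage genes C1qa, C1qb or C1qc were left out, as were those with 3% or more of their UMIs from the neutrophil genes S100a8 and S100a9. The rule found 68 members among 36662 barcodes that passed the quality limits, 59 of them in the tumour treated with takinib and 9 in the tumour treated with vehicle. They were set beside 770 other T cells, 580 in takinib and 190 in vehicle, which met the same exclusions with a CD3 sum of at least 2 and no UMI of Trdc or Il17a. The members were thus chosen by the measured UMIs of Trdc, Il17a, the CD3 sum and the excluded genes, whose levels are given as description and support nothing.

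The samples were pancreatic tumours of 6-week-old KPPC mice, a genetically engineered model of pancreatic ductal cancer whose alleles the labels do not spell out. Mice in the treated group received takinib at 50 mg/kg for 14 days, and the other group received vehicle. The compound takinib blocks TAK1, the kinase encoded by Map3k7 that relays signals from cytokine and pattern-recognition receptors to NF-kB and AP-1. Each group was 1 single-cell RNA library from tumour tissue dissociated with collagenase A and DNase-I, and the number of mice behind each library is not stated. Library and treatment therefore cannot be told apart, no difference has a replicate check, and no test between groups was possible. Intervals in square brackets are 95% intervals, exact Poisson for counts, exact Clopper-Pearson for shares and exact conditional binomial for ratios, and all of them cover counting error only.

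Most T cells carry a receptor of an α and a β chain, while a smaller lineage uses a γ and a δ chain. Some γδ T cells are set during thymic development to make IL-17A and related cytokines quickly after stimulation by IL-1 and IL-23, and they sit in barrier tissues and tumours rather than recirculating through lymph nodes. IL-17A acts on epithelial and stromal cells, which answer with neutrophil-attracting chemokines, and IL-17 producing γδ T cells have been described in pancreatic tumours. IL-17A is also made by αβ T cells of the Th17 type and by some innate lymphocytes.

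The 2 libraries differed in ways that reach these cells. Barcodes past the limits numbered 9872 in vehicle and 26790 in takinib, with median depths of 3594.5 and 3049.5 UMIs and median mitochondrial shares of 8.68% and 1.84%. Y-linked transcripts were counted in 3398 vehicle barcodes and in 0 takinib barcodes, and Xist, a transcript of female cells, in 1314 and 15602. The libraries shared 400 barcode sequences, none of them among the members. Takinib members held 1106 to 23640 UMIs with a median of 2717, against a median of 1816 in the other T cells of that library. Vehicle members held 1218 to 16737 UMIs with a median of 5435, against 1784.

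Members and other T cells together are called T cells in these shares. In takinib the members made up 59 of 639 T cells, 9.23% [7.10, 11.7], and in vehicle 9 of 199, 4.52% [2.09, 8.41]. Of all kept barcodes these were 0.220% [0.168, 0.284] and 0.0912% [0.0417, 0.173]. By either denominator the share was higher in takinib, and the intervals of the 2 libraries overlapped. After every barcode was thinned to 1000 UMIs before the rule was applied, 57 of 512 T cells in takinib were members, 11.1% [8.54, 14.2], and 3 of 129 in vehicle, 2.33% [0.482, 6.65]. Thinning also changes which cells pass the exclusions, so these need not be the same cells, and the intervals cover neither animals nor libraries.

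**Figure D1:**
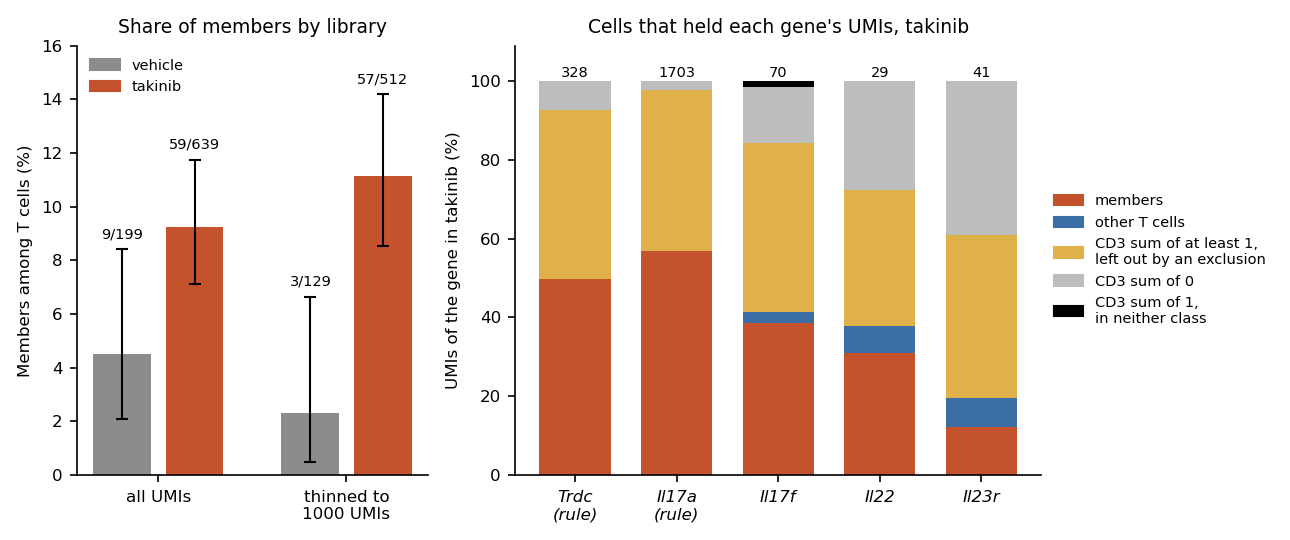
Left, share of T cells (%) that were members in the vehicle and takinib libraries, all UMIs and thinned to 1000 UMIs, with Clopper-Pearson 95% intervals. Right, stacked bars of the share of each gene's UMIs in takinib that lay in members, in cells with a CD3 sum left out by the exclusions and in other cells; 56.8% of Il17a UMIs lay in members.

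The label was checked against receptor genes that the rule did not use. Any UMI of another γ or δ receptor gene, constant or variable, was present in 49 of 59 takinib members (83.1%) and in 26 of 580 other T cells (4.48%). Of those 580 cells, 13 held at least 2 such UMIs. In vehicle it was present in 0 of 9 members and in 11 of 190 other T cells. The takinib members thus carried the receptor genes of the γδ lineage beyond Trdc. In the 55913 UMIs of the vehicle members none of the 16 genes of this kind was counted. That allows up to 53.7 CPM (a gene's UMIs over all UMIs of the class, scaled to counts-per-million as is usual).

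The 9 vehicle members were therefore barcodes with a CD3 sum of at least 1 and a UMI of Trdc or, in 1 cell, of Il17a. No more is claimed for them. Their median CD3 sum was 1, compared with 10 in takinib members. A sum of Trdc and Il17a of exactly 1 was found in 5 of the 9, and 4 held at least 2 UMIs of epithelial genes. These 4 held 8, 8, 41 and 15 UMIs of Krt8, a keratin gene of epithelium. The CD3 sum of each of them was a single UMI of Trbc2, so their own values do not mark them as T cells. A UMI of the α or β chain constant genes was seen in 7 of the 9. That count is set in part by the rule, since Trac and Trbc2 are in the CD3 sum. The single Il17a cell of vehicle held 3064 UMIs, among them 2 of Il17a, 2 of Trac, 3 of Trbc2 and 1 of Icos. In the whole vehicle library Il17a had 3 UMIs and Trdc 25, of which 12 lay in members and 11 in barcodes with a CD3 sum of 0. The results that follow concern the 59 takinib members unless vehicle is named.

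Among the γ and δ receptor genes, 6 of 16 reached the 20 summed counts asked for a comparison, and all 6 were at least 2-fold higher in members than in other T cells. Across the 8556 genes compared in takinib, 788 were at least 2-fold higher in members (9.21%) and 1651 at most 0.5-fold (19.3%), and the median log2 ratio was -0.01. Since the rule chose cells by a receptor gene, nothing is read from the contrast with that background. The median log2 ratio of the 6 receptor genes was 5.73.

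Trdv4, a variable segment of the δ chain (GRCm38 chr14:54074905-54075515, plus strand), had 195 UMIs in 39 members and 11 UMIs in 4 other T cells, or 842 and 6.38 CPM, a ratio of 132 [72.2, 269]. Tcrg-V6 (chr13:19190356-19190929, plus strand), the γ segment that pairs with that δ segment in the innate-like IL-17 lineage, had 52 UMIs in 24 members and 1 UMI in 1 other T cell, a ratio of 387 [66.5, 15587]. Tcrg-C1, a γ constant gene, reached 363 CPM in members and 4.64 CPM in other T cells, a ratio of 78.2 [37.9, 187]. The ratios were large because the denominators were close to 0, and their upper bounds are loose for that reason.

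Tcrg-C2, a near-identical paralogue of Tcrg-C1, stood at 143 and 9.28 CPM, Tcrg-C4 at 73.4 and 2.90 CPM, and Trgv2 at 147 and 4.06 CPM. Reads of Tcrg-C1 and Tcrg-C2 may be split between them, so the division between the γ constant genes is uncertain. Tcrg-V5, which lies beside Tcrg-V6 and marks the epidermal γδ lineage, had 18 UMIs in members and 0 in other T cells, at least 44.7-fold higher. Tcrg-V6 and Trdv4 were seen in the same cell in 23 members, and Tcrg-V5 and Tcrg-V6 in 5. Whether counting used strand is not given in the sources used here, so reads antisense to these segments cannot be told apart.

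The same transcripts were counted at low shares in cell types that should lack them. In takinib epithelial cells, with a median of 10915.5 UMIs, Trdv4 was found in 37 of 1700 (2.18%), and in vehicle epithelial cells in 27 of 1311 (2.06%, median 5672 UMIs). In takinib neutrophils it was found in 17 of 12137 (0.140%), and the source of these UMIs was not tested. Il17a was found in 4 of the 1700 takinib epithelial cells (0.235%) and in 21 of 12137 neutrophils (0.173%, median 2248 UMIs). It was also found in 2 of 4900 macrophages (0.0408%, median 6803 UMIs) and in 2 of 1286 B cells (0.156%, median 2650 UMIs). Trdc was found in 11 of those neutrophils (0.0906%) and in 3 of those macrophages (0.0612%). These shares were far below the 39 of 59 members with Trdv4.

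In takinib 14 of 59 members had exactly 1 UMI of Trdc and Il17a together, 4 had a CD3 sum of exactly 1, and 31 had a CD3 sum of at least 10. Just outside, 14 barcodes passed the exclusions with Trdc or Il17a but no CD3 transcript, and 2 of these held another γ or δ receptor UMI.

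Transcripts of αβ T cells ran the other way. Of 9 genes compared in the list of α and β chain, CD3 and coreceptor genes outside the rule, 7 were lower in members, 1 was higher and 1 was neither, with a median log2 ratio of -2.53. Cd8a, a chain of the CD8 coreceptor, had 0 UMIs in members and 205 in other T cells, at least 9.17-fold lower, and Cd8b1, the other chain, stood at a ratio of 0.125. Cd4 had 1 UMI in members and 57 in other T cells. A UMI of Cd4, Cd8a or Cd8b1 was present in 4 of 59 members and in 294 of 580 other T cells (50.7%).

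Cd28, a costimulatory receptor, had 0 UMIs in members and 89 in other T cells, at least 3.98-fold lower. Cd27, of the same kind, stood at a ratio of 0.150 and Cd5, a brake on receptor signalling, at 0.173. Cd247, the ζ chain of the receptor complex shared by both lineages, was the gene that was higher, at a ratio of 2.31. Trbc1, a β chain constant gene, stood at a ratio of 0.666 and was neither. A UMI of Trac, Trbc1 or Trbc2 was nevertheless present in 41 of 59 members, and Trac itself in 12 of 59. Because Trac and Trbc2 are in the CD3 sum, these counts are set in part by the rule.

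Il17a (GRCm38 chr1:20730905-20734496, plus strand) accounted for 967 UMIs in 39 members. The cells differed widely: the 3 highest held 181, 104 and 98 UMIs, the median of the 39 was 8, and 10 cells held 1. In 16 cells with at least 20 UMIs lay 90.6% of the members' Il17a, and in the highest cell Il17a made up 5.53% of all its UMIs. Il17a is a rule gene, so the number of members that held it is set in part by the rule. Most of the transcript lay in 16 of the 59 cells. Il17f, the neighbouring paralogous cytokine, had 27 UMIs in 5 members (10, 8, 7, 1 and 1) and 2 UMIs in 1 other T cell, a ratio of 101 [25.3, 872]. All 5 of these members also held Il17a.

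Il22, a cytokine that acts on epithelium, had 9 UMIs, all in 1 member that held 12 UMIs of Il17a and no other γ or δ receptor transcript. Of 4 cytokine genes compared outside the rule, 3 were higher and 1 lower, with a median log2 ratio of 1.14. Ltb, a membrane lymphotoxin chain, stood at 2.02 but at 1.11 after thinning. Tnf, an inflammatory cytokine, was the lower one, at 0.473.

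The promoters of Il17a, Il17f and Il23r are shown because RORα, whose gene Rora was detected in these cells, binds a core of the letters AGGTCA. Each window is from RefSeq on GRCm38.p6, written 5′ to 3′ in the direction of transcription, with 250 bases before and 50 after the annotated start. Capitals mark AGGTCA or its reverse complement TGACCT. The windows are chr1:20730655-20730954 (plus strand) for Il17a, chr1:20784221-20784520 (minus strand) for Il17f and chr6:67491806-67492105 (minus strand) for Il23r.
Il17a: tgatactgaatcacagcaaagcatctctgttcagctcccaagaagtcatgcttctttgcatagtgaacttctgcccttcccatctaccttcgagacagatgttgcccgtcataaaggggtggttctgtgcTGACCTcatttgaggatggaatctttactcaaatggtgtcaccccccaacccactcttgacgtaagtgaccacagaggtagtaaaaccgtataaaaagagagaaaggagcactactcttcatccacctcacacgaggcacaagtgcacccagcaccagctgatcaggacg
Il17f: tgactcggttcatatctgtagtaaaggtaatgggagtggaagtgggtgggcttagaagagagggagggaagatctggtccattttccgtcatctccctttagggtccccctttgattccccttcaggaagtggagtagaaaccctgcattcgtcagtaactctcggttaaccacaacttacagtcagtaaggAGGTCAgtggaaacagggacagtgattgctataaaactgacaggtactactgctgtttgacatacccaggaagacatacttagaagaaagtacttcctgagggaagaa
Il23r: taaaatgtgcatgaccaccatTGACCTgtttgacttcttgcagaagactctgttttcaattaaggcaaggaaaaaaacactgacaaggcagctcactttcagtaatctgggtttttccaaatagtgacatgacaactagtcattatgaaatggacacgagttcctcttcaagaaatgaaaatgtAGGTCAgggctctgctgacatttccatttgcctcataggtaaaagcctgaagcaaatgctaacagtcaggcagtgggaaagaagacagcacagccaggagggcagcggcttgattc

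The match began 120 bases before the start in Il17a, on the opposite strand, and 58 bases before the start in Il17f, on the same strand. Il23r had 2 matches, 229 bases before the start on the opposite strand and 66 bases before it on the same strand. AGGTCA on either strand was present in 5340 of 32851 mouse promoters of this length (16.3%), so a match is common. Of the 15 genes named below as highest in members, 8 had a promoter entry and 3 of these held the core: Il17f, Actn2 and Pdcd1. The matches are letters in a window and do not show binding.

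Il23r, the receptor chain through which IL-23 drives IL-17 production, was barely detected, with 5 UMIs in 5 members and 3 UMIs in 3 other T cells. Although Il23r is one of the marker genes of this class, its counts were too few to compare. Members held 5 of the 41 Il23r UMIs of takinib (21.6 CPM), while the 61 cells left out by the exclusions, described below, held 16 UMIs in 13 cells (43.4 CPM [24.8, 70.6]). Of 13 type 17 cytokine receptor genes that could be compared, 6 were higher in members, 3 lower and 4 neither, with a median log2 ratio of 0.85. Il1r1, the receptor of IL-1, stood at 190 CPM in members and 19.1 CPM in other T cells, a ratio of 9.93. The IL-2 receptor chains Il2ra and Il2rb stood at ratios of 10.6 and 4.25, and Ltb4r1, a leukotriene B4 receptor, at 10.5. Il7r, the survival receptor of most T cells, was similar at 536 and 445 CPM, and Il6ra, which drives Th17 differentiation, was low in members at a ratio of 0.186.

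Of 13 genes compared in the list of type 17 transcription factors, which also holds the kinase gene Blk, 6 were higher, 2 lower and 5 neither, with a median log2 ratio of 0.87. Rora, which encodes the nuclear receptor RORα, had 99 UMIs in 38 members and 57 in 39 other T cells, or 428 and 33.1 CPM, a ratio of 12.9 [9.25, 18.2]. Blk, a Src-family kinase needed by IL-17 producing γδ cells, reached a ratio of 74.5 [29.9, 239], from 50 UMIs in 24 members and 5 UMIs in 5 other T cells.

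Sox13, a factor of the same lineage, had 11 UMIs in members and 0 in other T cells, at least 27.3-fold higher, and Zbtb16, which encodes the innate-like lymphocyte factor PLZF, had 16 and 2. Gata3, the factor of type 2 T cells, was lower at a ratio of 0.155. Maf, Hif1a, Id2 and Batf, factors of type 17, hypoxic, innate-like and effector programs, stood at ratios of 4.82, 4.59, 4.72 and 4.62. Together with Rora and Blk these 4 were the 6 genes of the list that were higher.

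Of 16 γδ17 surface and signature genes compared, 12 were higher, 1 lower and 3 neither, with a median log2 ratio of 2.34. Cd163l1 (GRCm38 chr7:140218267-140231145, plus strand), a scavenger receptor of the SCART type, was the gene with the most UMIs in members among those named as highest: 199 UMIs in 40 members and 11 in 9 other T cells, or 859 and 6.38 CPM, a ratio of 135 [73.7, 274]. Actn2, an α-actinin, stood at 289 and 13.9 CPM, a ratio of 20.8, and at 3.99 after thinning. Icos, a costimulatory receptor, stood at 432 and 39.4 CPM, a ratio of 11.0.

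S100a4, a calcium-binding protein of memory and tissue lymphocytes, stood at 1430 and 293 CPM. Ramp1, Serpinb1a and Ly6a stood at ratios of 6.82, 5.29 and 3.0. Tmem176a and Tmem176b, neighbouring related ion channel genes, stood at 8.47 and 5.54, with reads that may be split between them. Lgals3, which encodes galectin-3, was the lower gene at 0.366, and its ratio was 1.05 after thinning.

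**Figure D2:**
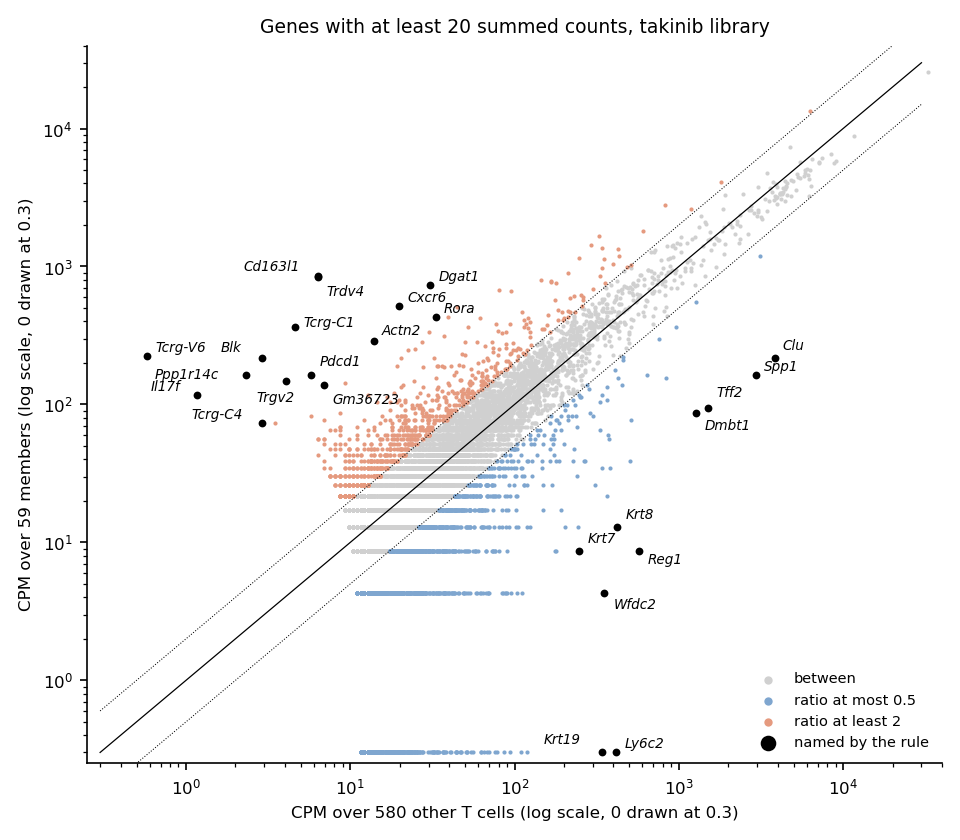
Each point is 1 gene compared in takinib, with its CPM summed over the 580 other T cells (x) and over the 59 members (y), both on log axes; black points carry the names of the 15 highest and 10 lowest genes. Cd163l1 and Trdv4 lie at 859 and 842 CPM in members and both at 6.38 CPM in other T cells.

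Of the 15 genes with the highest lower bound of the ratio, 10 were γ or δ receptor, cytokine, factor or signature genes already given. The other 5 included Cxcr6 (GRCm38 chr9:123806475-123811760, plus strand), a chemokine receptor of tissue-resident lymphocytes, with 120 UMIs in 39 members and 34 in 23 other T cells, a ratio of 26.3 [17.8, 39.7]. Dgat1, which makes triglycerides, had 169 UMIs in 38 members and 53 in 43 other T cells, a ratio of 23.7 [17.3, 33.0]. Pdcd1, which encodes the checkpoint receptor PD-1, had 38 and 10 UMIs, a ratio of 28.3 [13.8, 63.7]. Ppp1r14c, a phosphatase inhibitor, had 38 and 4, and Gm36723, a long noncoding RNA, had 32 and 12.

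In vehicle members 14 of these 15 genes had 0 UMIs and Rora had 1. A count of 0 over all 9 vehicle members allows up to 53.7 CPM. Takinib member levels of the 15 ran from 73.4 CPM for Tcrg-C4 to 859 CPM for Cd163l1. Of the 55913 UMIs of vehicle members, the 4 with epithelial UMIs held 12657, 7167, 16737 and 6045, so the limit over the other members alone is higher. The 15 genes were chosen by their takinib ratios, so nothing is read from this contrast. Across 6736 genes compared in vehicle, 797 were at least 2-fold higher in members (11.8%) and 1429 at most 0.5-fold (21.2%).

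Of 12 chemokine receptor and homing genes compared, 6 were higher, 4 lower and 2 neither, with a median log2 ratio of 0.63. Ccr2, the receptor for the inflammatory chemokine CCL2, stood at 363 and 52.2 CPM, a ratio of 6.95. Ccr7, which takes T cells into lymph nodes, had 0 UMIs in members and 148 in other T cells, at least 6.62-fold lower. S1pr1, which lets T cells leave tissue, had 1 UMI in members and 163 in other T cells. Ccr6, a receptor often used to mark IL-17 producers, had 0 UMIs in members and 5 in other T cells.

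Of 9 naive and central memory genes, 8 were lower in members, none higher and 1 neither, with a median log2 ratio of -2.28. Tcf7 and Lef1, factors of naive T cells, stood at 0.206 and 0.263, and Klf2, a quiescence factor, at 138 and 452 CPM, a ratio of 0.306. Of 10 activation and exhaustion genes, 5 were higher, 1 lower and 4 neither, with a median log2 ratio of 1.54. Ctla4, a checkpoint receptor, stood at 510 and 44.7 CPM, a ratio of 11.4, and Rgs1, a brake on chemokine signalling in tissue T cells, at 665 and 95.7 CPM, a ratio of 6.95. Havcr2 and Tnfrsf9, a checkpoint and a costimulatory receptor, stood at 11.2 and 6.65.

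**Figure D3:**
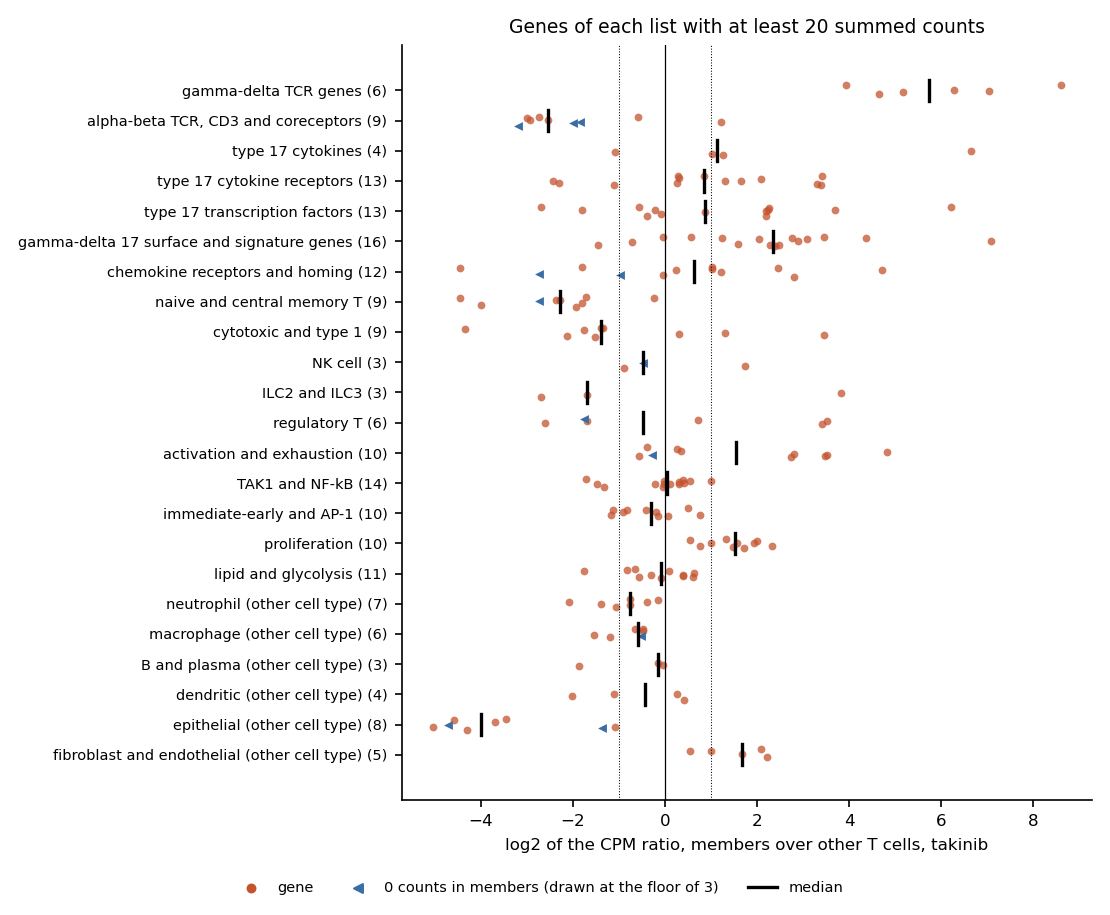
Log2 ratio of CPM (members over other T cells, takinib) for each compared gene of the gene lists, with the median of each list; blue triangles are genes with 0 counts in members, drawn at the floor of 3 counts. The γδ receptor list lies highest (median 5.73) and the epithelial list lowest (median -3.99).

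Genes of other lymphocyte programs were mostly lower or mixed. Of 9 cytotoxic and type 1 genes, 2 were higher, 6 lower and 1 neither, with a median log2 ratio of -1.40. Nkg7, a cytotoxic granule protein, stood at 82.1 and 236 CPM, a ratio of 0.348, and Ccl5, a chemokine of effector T cells, at 367 and 967 CPM, a ratio of 0.380, where 1 cell held 39 of the 85 member UMIs. Gzmb, which encodes granzyme B, stood at 333 and 30.2 CPM, a ratio of 11.0, but 1 cell held 31 of the 77 member UMIs. Gzma, which encodes granzyme A, had 1 UMI in members and 151 in 9 other T cells.

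The natural killer (NK) list had 3 genes compared, 1 higher, 1 lower and 1 neither, with a median log2 ratio of -0.47, and Ncr1 or Klrb1c was present in 4 of 59 members. The list for innate lymphoid cells had 1 higher and 2 lower of 3 (median log2 ratio -1.69), with Tnfrsf25, a TNF-family receptor, at a ratio of 14.2. The regulatory T cell list had 2 higher, 3 lower and 1 neither of 6 (median -0.48). Its higher genes were Il2ra and Ctla4, which are also in other lists, while Foxp3, the defining factor, had 1 UMI in members and 24 in other T cells and Tnfrsf4 had 0 and 76, at least 3.40-fold lower.

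The kinase that takinib inhibits was measured at low level. Map3k7 stood at 38.9 CPM in members and 29.6 CPM in other T cells, a ratio of 1.31 [0.569, 2.70], an interval that spans 1. Of 14 TAK1 and NF-kB genes compared, 1 was higher, 3 lower and 10 neither, with a median log2 ratio of 0.05. Tab2, an adaptor of TAK1, was the higher one at 2.01, and the NF-kB subunits Rela and Relb were lower at 0.359 and 0.304. Nfkbia, the inhibitor induced by NF-kB, was at 626 and 580 CPM. These are levels within the treated library, so they say nothing of what the drug changed.

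Of 10 immediate-early and AP-1 genes none was higher, 2 were lower and 8 neither (median log2 ratio -0.31), the lower ones being Jun at 0.444 and Dusp1, a MAP kinase phosphatase, at 0.461. Of 11 lipid and glycolysis genes, 1 was lower and 10 neither (median -0.08). Of 10 proliferation genes, 8 were higher and 2 neither (median 1.52), but Ccnb1, Ccna2 and Mcm5 had 0 member UMIs after thinning. A UMI of any of the 10 was present in 26 of 59 members and 176 of 580 other T cells, and counts of some genes were concentrated. Mki67, a marker of cycling cells, had 36 of its 55 member UMIs in 3 cells, and Top2a, a replication enzyme, had 34 of 61 in 3 cells.

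Markers of other cell types moved with the comparison. Summed over the 8 epithelial markers, members held 212 CPM [157, 280] and other T cells 2115 [2047, 2185]. All 8 markers compared were at most 0.5-fold (median log2 ratio -3.99), with Krt19 and Cldn4 at 0 UMIs in members. At least 2 epithelial UMIs were present in 3 of 59 members and 42 of 580 other T cells. Of the 10 lowest genes, Krt19, Krt8, Krt7, Reg1, Wfdc2, Clu, Spp1, Tff2 and Dmbt1 are made by ductal or gastric-type epithelium or other non-lymphoid cells.

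Thinning and leaving out such cells moved some of these genes and not others. After thinning, Clu stood at 0.692, Tff2 at 0.905, and Spp1 and Dmbt1 both at 1.17. Krt19, Krt8, Krt7, Reg1 and Wfdc2 had 0 member UMIs after thinning. Without cells holding epithelial or fibroblast UMIs, an alternative chosen after seeing the data, Clu stood at 0.598, Tff2 at 0.608, Krt7 at 0.693 and Dmbt1 at 0.714. In the same alternative Spp1 stood at 0.436, Krt8 at 0.402, Wfdc2 at 0.231 and Reg1 at 0.169, all still at most 0.5-fold. Krt19 had 0 member UMIs against 21 in other T cells, too few to tell whether it was still lower. Krt8 and Krt19 were among the genes by which cells were left out there, so their values are shaped by that choice. The tenth gene, Ly6c2, of a surface protein of memory CD8 T cells and monocytes, had 0 UMIs in members and 719 in other T cells, at least 32.2-fold lower. It had 0 member UMIs in those alternatives too, and its reads may be shared with its near-identical neighbour Ly6c1.

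The remaining marker sums were closer. Neutrophil markers summed to 1710 CPM [1546, 1887] in members and 2764 [2686, 2844] in other T cells, with 3 of 7 compared genes lower (median log2 ratio -0.76). Macrophage markers summed to 929 [809, 1061] and 1398 [1343, 1455], with Adgre1 at 0 in members and 3 of 6 lower (median -0.58). B cell markers summed to 186 [134, 250] and 241 [218, 265], with 1 of 3 lower (median -0.15). Dendritic markers summed to 432 [351, 525] and 417 [387, 449], with Flt3, Clec9a and Cd209a at 0 in members and 2 of 4 lower (median -0.43).

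Fibroblast and endothelial markers summed to 3027 CPM [2807, 3260] in members and 1004 [957, 1052] in other T cells, with 3 of 5 higher (median 1.68). Of the 209 member UMIs of Col1a1, a collagen chain, 208 lay in the deepest member. The same cell held 176 of 181 UMIs of Col1a2, 210 of 213 of Col3a1 and 83 of 85 of Dcn, so the higher member sum rests on 1 cell. The part that these other transcripts had in the gene differences was not tested beyond the alternatives given.

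Within the members, 29 cells held both Trdc and Il17a, 20 held Trdc without Il17a and 10 held Il17a without Trdc. Their median depths were 3208, 2149 and 2182.5 UMIs, so detection of both genes went with deeper cells. Another γ or δ receptor UMI was present in 29 of 29, 15 of 20 and 5 of 10 cells respectively. Trdv4 stood at 1058, 573 and 192 CPM in that order and Cd163l1 at 947, 1018 and 192 CPM. Cells with Il17a alone thus had the least of both genes.

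Cxcr6 stood at 601, 445 and 224 CPM in the same order, Ccr2 at 300, 636 and 256 CPM, and Nkg7 at 19.6, 170 and 256 CPM. Of 9 Klrb1c UMIs 8 lay in cells with Trdc alone. Cd8b1 was at 0 in cells with both genes and was found in 2 cells with Trdc alone and 1 with Il17a alone. Of the 8 Nkg7 UMIs in cells with Trdc alone 1 cell held 7, and the same was so in cells with Il17a alone, so these levels rest on a cell in each.

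A split of the members by Cd163l1 and Trdv4, chosen after their values were seen, gave 43 cells with a UMI of either (median 3014 UMIs) and 16 with neither (median 2140 UMIs). Cxcr6 was present in 37 of the 43 and 2 of the 16. Rora was present in 34 and 4, Dgat1 in 34 and 4, Icos in 29 and 3, and Ctla4 in 29 and 5. Among members that held Trdc, and so did not need Il17a to meet the rule, Il17a was present in 28 of 41 with either gene and 1 of 8 with neither. Nkg7 was present in 3 of the 43 and 4 of the 16, and Cd8b1 in 0 and 3. Trdv4 and Cd163l1 were found together in 36 cells.

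**Figure D4:**
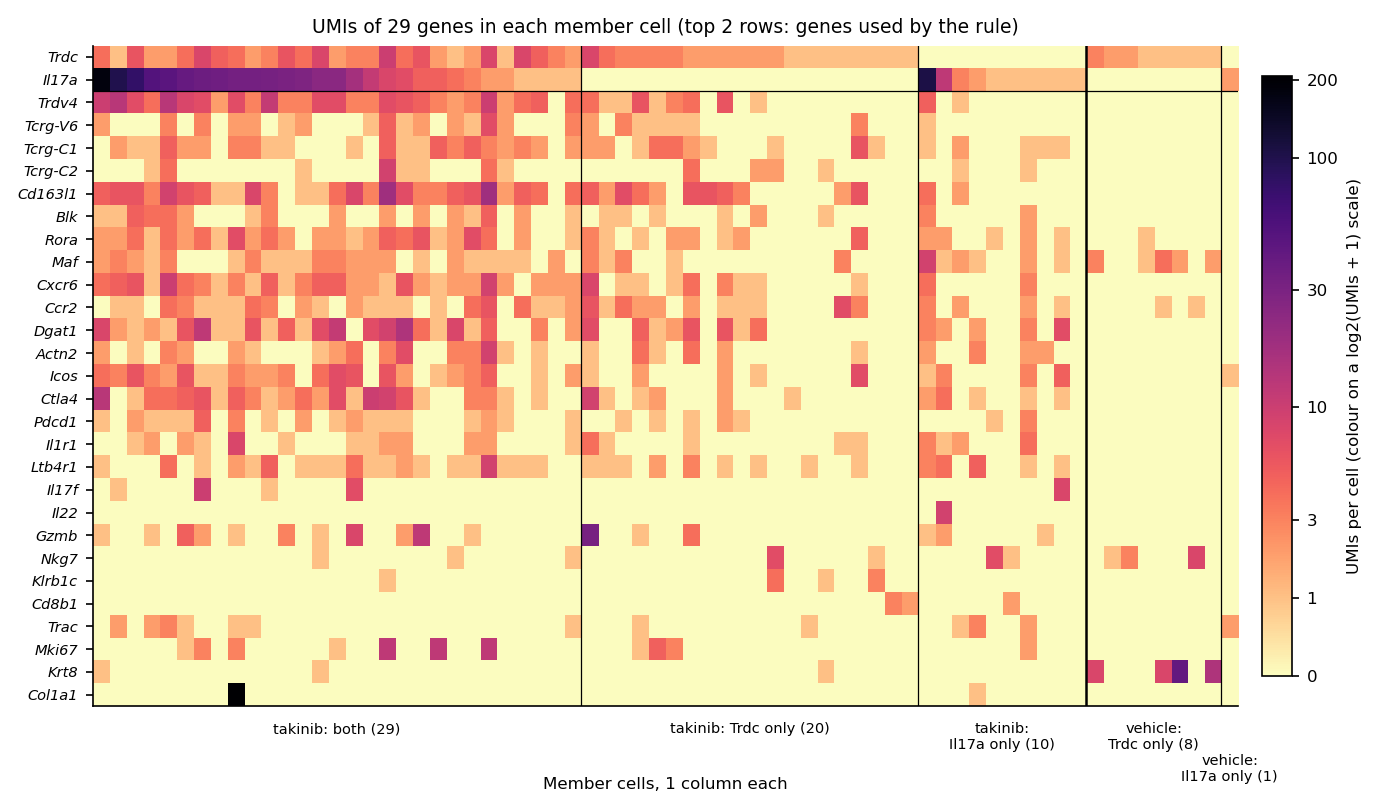
Heatmap of 29 genes (rows) in the 59 takinib and 9 vehicle members (columns), ordered by which of Trdc and Il17a they held, with colour as log2(UMIs + 1). Apart from Trdc, the rows of γδ receptor genes and those of Cd163l1 and Cxcr6 are filled mainly in takinib cells with both genes or with Trdc alone, and are empty in vehicle.

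The 10 takinib members without any other γ or δ receptor UMI held 7 Cd8b1 UMIs in 3 cells and 8 Nkg7 UMIs in 2 cells, and 0 Cxcr6 UMIs. They also held 17 Il17a UMIs in 5 cells and all 9 Il22 UMIs of the class.

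The exclusions removed about as many cells as they kept. Before them 120 takinib barcodes had a CD3 sum of at least 1 and Trdc or Il17a, and 61 were left out: 45 held C1q UMIs, 20 reached the S100a8 and S100a9 limit and 5 held Cd79a, with overlap. By comparison 589 of 1169 other T cells (50.4%) were left out by the same rules. Of the 1703 Il17a UMIs in takinib 967 (56.8%) were in members, 696 (40.9%) in 36 of the left-out cells and 40 in barcodes with a CD3 sum of 0. Of the 328 Trdc UMIs 163 were in members, 141 in left-out cells and 24 in barcodes with a CD3 sum of 0.

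The left-out cells had a median of 3782 UMIs and a median CD3 sum of 7, and 46 of 61 held another γ or δ receptor UMI. C1q alone removed 36 of them. Of all 61, 33 held 1 to 3 C1q UMIs. Trdv4 stood at 578 CPM [503, 662] and Cd163l1 at 415 CPM [352, 487] in these cells. Cxcr6 stood at 244 CPM, Rora at 190 CPM, Icos at 198 CPM and Dgat1 at 391 CPM. All of these lay between the levels of members and of other T cells.

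The same cells held more myeloid RNA: Lyz2, Apoe and Lcn2 stood at 2876, 2534 and 2971 CPM, against 700, 164 and 855 CPM in members. Il17f was at 81.5 CPM, 30 UMIs in 7 cells. Of Gzmb, 51 of 84 UMIs lay in 1 cell. In vehicle 12 barcodes met the rule before the exclusions and 3 were left out.

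**Figure D5:**
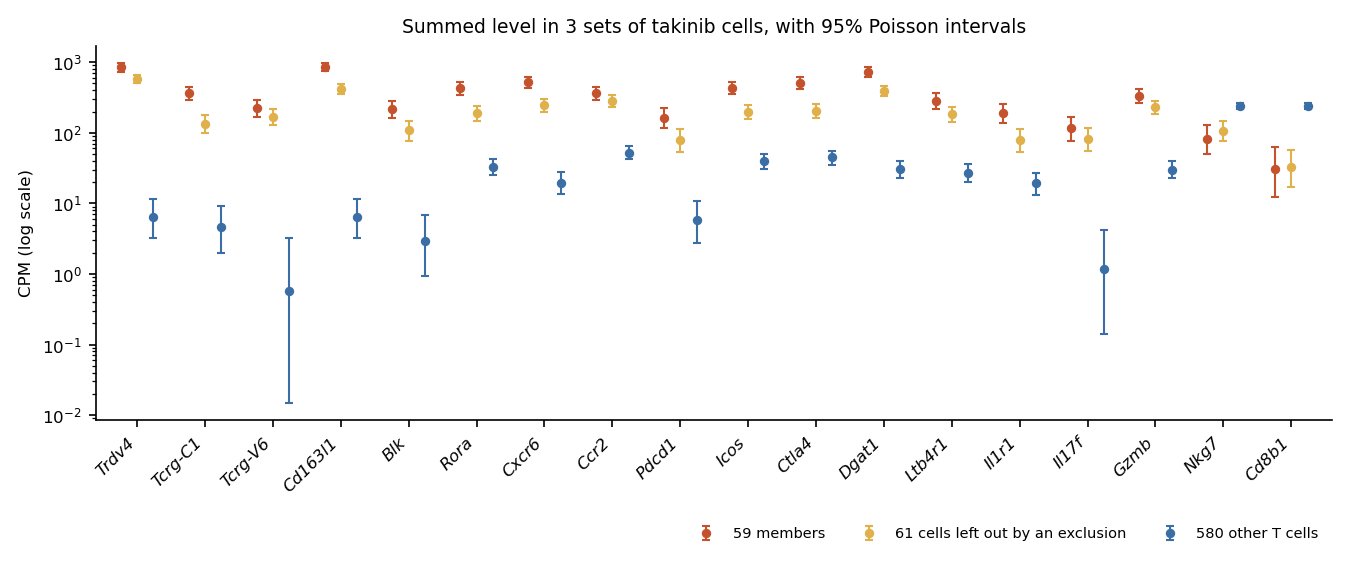
CPM (log axis) of 18 genes in the 59 takinib members, the 61 cells left out by the exclusions and the 580 other T cells, with exact Poisson 95% intervals. Trdv4 and Cd163l1 in the left-out cells lie below members and above other T cells, while Nkg7 and Cd8b1 are highest in the other T cells.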

How the data were processed

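Single-cell RNA was measured in 1 vehicle and 1 takinib library. Each deposited matrix gives whole UMI counts of genes in barcodes. Per the file headers the authors made these counts with Cell Ranger 4 (vehicle) and 6.1.1 (takinib), while the submitters' processing notes name Cell Ranger 2.1.1, STAR 2.0.4b, featureCounts 1.45, bcl2fastq, Subread and the build mm10. Takinib barcodes with fewer than 500 UMIs were absent from its matrix, whereas 470280 of 704261 vehicle barcodes held a UMI at all, so equal limits were set here.

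Barcodes were kept with at least 1000 UMIs, 500 genes and at most 20% mitochondrial UMIs. No doublet caller was applied in the main analysis, and removal of the 6% with the highest Scrublet scores was an alternative. Counts were summed per class and library and scaled to CPM. Ratios of CPM needed at least 20 summed counts over both classes, and at least 2 counted as higher and at most 0.5 as lower, leaving out 13 rule genes. A count of 0 was given a floor of 3 counts over the class.

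With 1 sample per group no test was run. Named were the detected genes of 23 gene lists given by role, the 15 genes with the highest lower bound and the 10 with the lowest upper bound of the ratio in takinib, without mitochondrial, ribosomal, haemoglobin and immunoglobulin genes. The members, the lists and these rules were chosen with earlier results of these data known. The script was tested on simulated data. Coordinates are GRCm38 and promoters RefSeq GRCm38.p6. Tools were Python 3.11.15, numpy 2.4.6, scipy 1.17.1, pandas 2.3.3, scanpy 1.11.5 and matplotlib 3.10.9. Some listed genes are not reported here.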

Additional observations from a re-analysis of the deposited data

Results flagged for a closer look

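Some genes stood on opposite sides in the 2 libraries. Klf2, a quiescence factor of naive T cells, had a member to other T cell ratio of 2.40 [1.42, 3.86] in vehicle and 0.306 in takinib. Nkg7, a cytotoxic granule protein, stood at 3.63 [1.77, 6.87] and 0.348, and Ccl5, a chemokine of effector T cells, at 2.31 [1.18, 4.14] and 0.380. The vehicle ratios rest on 20, 12 and 13 member UMIs of Klf2, Nkg7 and Ccl5. The 12 Nkg7 UMIs lay in 3 cells, and 1 cell held 8 of them. At least 2 epithelial UMIs were present in 4 of the 9 vehicle members and in 63 of the 190 other T cells. The difference between libraries was not tested, since each has 1 sample and vehicle has 9 members.

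Signal also lay in cells that the comparisons did not use. Takinib barcodes with a CD3 sum of at least 1 that the exclusions removed held 696 UMIs of Il17a and 141 of Trdc. In vehicle the whole library held 3 Il17a UMIs.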

How the results depend on the processing

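The share of members among T cells in takinib was 9.23% and became 19.7% (42 of 213 cells) with at least 2000 UMIs and 1000 genes. In vehicle 4 members were left, both with a CD3 sum of at least 2 and with at least 2 UMIs of Trdc and Il17a, giving 2.06% of T cells and 0.0405% of kept barcodes in each case. Thinning gave 0.0304% of kept barcodes in vehicle.

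The count of genes at least 2-fold higher was 788 and that of genes at most 0.5-fold was 1651. The higher count became 504 after thinning, 1211 with the mean of per-cell CPM, 447 for CPM + 10, 2066 without a filter and 388 with at least 50 counts. The lower count became 597 after thinning, 926 for CPM + 10, 6499 without a filter, 696 with at least 50 counts and 1042 without cells holding epithelial or fibroblast UMIs, an alternative chosen after seeing the data. Tested genes fell to 3402 after thinning and 5192 with at least 50 counts, and rose to 16029 without a filter. Of the 1651 lower genes 376 had 0 member counts, and 53 of these were at most 0.5-fold at the floor of 3 counts.

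The genes followed were those called higher or lower in the lists, without the lists of other cell types, and the named highest and lowest genes. Listed genes called neither were not followed. Each followed gene was thus at least 2-fold higher or at most 0.5-fold to begin with, and that choice in part sets how few could turn. Over 12 settings these genes gave 1306 ratios, of which 12 turned direction. Beyond those, 47 ratios left their counting interval under thinning, 22 with at least 2000 UMIs and 1000 genes and 22 with the mean of per-cell CPM. Over the settings Tcrg-V6 ranged from 22.2 to 435, Trdv4 from 52.0 to 539 and Cd163l1 from 31.9 to 289. Klrc1 stood at 0.494 with at least 2 UMIs of Trdc and Il17a, at 0 after thinning and at 0.926 without NK-marker cells, where Klrb1c, by which those cells were left out, stood at 0. After thinning Spp1 and Dmbt1 stood at 1.17, Il18r1 at 0.958, Lgals3 at 1.05, Arg1 at 1.87, and Ccnb1, Ccna2 and Mcm5 at 0. Apart from fewer counts under thinning, the cause was not tested. No paired analysis was possible because each group has 1 sample, whose number is only its accession order.

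A count of 0 in the 59 takinib members allows up to 13.0 CPM, and in the 9 vehicle members up to 53.7 CPM.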
